A study of Mus musculus with 6 samples.

Results

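Among the genes that hypoxia-inducible factor 1 (HIF-1) is known to switch on, 9 with functions outside glycolysis were followed in activated CD4+ T cells that lack the histone demethylase UTX. They were Vegfa, Bnip3, Bnip3l, Ndrg1, Car12, Ddit4, Mxi1, Plod1 and Pnrc1, and they were found by gene symbol. All 9 had a row in the table of 4162 genes, and all 9 were among the 4118 genes left by the low-count filter. The tested cells came from 3 UTX TCD mice, described as B6 animals lacking UTX in T cells only, and the cells they were set against came from 3 B6 WT mice. In both groups naive CD4+ T cells were separated from spleen with a magnetic kit and stimulated for 48 h with anti-CD3 fixed to the plate and dissolved anti-CD28, so every library is from stimulated cells. The sources used here do not give the promoter that drives the deletion, the deleted exons, or the age and sex of the mice. UTX, encoded by Kdm6a, removes methyl groups from lysine 27 of histone H3, and the series' title puts the comparison in terms of how T cells that cause colitis sense hypoxia.

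HIF-1 is a pair of an oxygen-regulated subunit, encoded by Hif1a, and a constant partner, encoded by Arnt. With oxygen present, prolyl hydroxylases mark the regulated subunit and the VHL ubiquitin ligase has it degraded. Without oxygen, and also after stimulation of the T cell receptor, the subunit accumulates and the pair binds short DNA elements near its targets. Its best-known targets encode glucose transporters and glycolytic enzymes. The genes followed here belong to other branches of the response, which are blood vessel growth (Vegfa), control of pH (Car12), removal of mitochondria (Bnip3, Bnip3l), restraint of growth (Ddit4, Mxi1, Pnrc1), stress tolerance (Ndrg1) and collagen modification (Plod1).

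The table is not a full transcriptome. Only 20 of 4118 tested genes had a log2 fold change within 0.1 of 0, and the emptiest window of that width, centred at 0.075, held 2 genes, so rows with little difference between genotypes had been left out before deposit. Levels are given in CPM relative to the total of the listed genes after TMM scaling, and column totals of 8363326 to 10288306 counts are not library depths. Kdm6a, the targeted gene, had 188, 207 and 179 CPM in UTX TCD libraries 1 to 3, against 286, 281 and 281 CPM in WT libraries 1 to 3, and was lower in each UTX TCD library (log2 fold change -0.56 ± 0.09 SE, edgeR adjusted p = 0.0029). These counts cover the whole gene, including exons outside any deleted part. Of 5 other genes tested in its list of related demethylases and Polycomb repressive complex subunits, Phf1 (0.86 ± 0.15), Jarid2 (0.46 ± 0.08) and Ezh1 (0.33 ± 0.11) rose and Eed fell (-0.24 ± 0.08), the calls of Ezh1 and Eed being lost without UTX TCD replicate 3 or any 1 WT library. UTX TCD libraries varied more than WT libraries (biological coefficient of variation 22.3% and 8.01%), and the UTX TCD library that differed most from the others was replicate 2. Of 16 T cell markers, 5 had a row, with Cd28 at 1747 ± 110 and Lck at 1375 ± 36.6 CPM in UTX TCD cells, and 982 ± 123 and 1507 ± 24.5 CPM in WT cells. Cd2 rose (1.10 ± 0.23) and Lat fell (-0.44 ± 0.08) on the log2 scale. Of these 5, 2 rose and 2 fell, with Thy1 far lower at 56.8 ± 18.3 CPM in UTX TCD cells, against 809 ± 85.1 CPM in WT cells. Cd3e and Cd4 were not analysed here. Beside the marker counts, 41.1% of all tested genes were called higher and 27.0% lower. Myeloid markers had a row in 3 of 24 cases. They summed to 14.8 to 25.8 CPM in UTX TCD and 33.2 to 42.3 CPM in WT libraries (0 higher, 2 lower). The 2 lower were Fgr and Cd86, scarce in UTX TCD cells at 0.72 ± 0.45 and 0.59 ± 0.11 CPM. Cebpb, most of the UTX TCD sum, had 20.8 ± 6.83 CPM in UTX TCD and 13.6 ± 3.05 CPM in WT cells. With all 6 libraries Cebpb did not pass (edgeR adjusted p = 0.090). With 1 library left out, it passed only without UTX TCD replicate 1. B cell markers had a row in 4 of 16 cases. They summed to 498 to 801 CPM in UTX TCD and 473 to 576 CPM in WT libraries, mostly Ighm. Of these markers 0 were higher, and Fcer2a and Igkc were the 2 lower. Ighm (0.38 ± 0.17 on the log2 scale, edgeR adjusted p = 0.074) and Ighd (0.66 ± 0.27, 0.055) lay higher in UTX TCD cells without passing. With 1 library left out, Ighm and Ighd passed only without UTX TCD replicate 1. The call of Fcer2a was lost without any 1 WT library. With 1 library left out, Igkc passed only without UTX TCD replicate 3. CD8 T and NK cell markers, 4 of 12 with a row, summed to 66.9 to 119 CPM in UTX TCD and 40.2 to 80.7 CPM in WT libraries (2 higher, 0 lower), with Cd8b1 at 42.8 ± 12.5 and 13.0 ± 1.48 CPM and Klrd1 at 3.69 ± 0.82 and 1.40 ± 0.37 CPM in UTX TCD and WT cells. The Klrd1 call was lost without WT replicate 1 or 2. Endothelial and stromal markers, 2 of 14 with a row, summed to 978 to 1248 CPM in UTX TCD and 773 to 868 CPM in WT libraries (2 higher, 0 lower). Most of that sum was Vim (0.31 ± 0.10 on the log2 scale), while Pecam1, which T cells can also carry, had 299.6 ± 83.9 CPM in UTX TCD and 123 ± 13.6 CPM in WT cells, a log2 fold change of 1.29 ± 0.21 that passed whichever library was left out (edgeR adjusted p = 0.0036). The Vim call was lost without UTX TCD replicate 3 or any 1 WT library. None of 13 erythroid and platelet markers had a row. The part of other cells in the results below was not tested. In bulk RNA, fewer cells that express a gene and less RNA of it per cell cannot be told apart.

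Most of the 9 targets were more abundant in cells without UTX. Vegfa, Bnip3, Bnip3l, Ndrg1, Mxi1 and Pnrc1 rose, Car12 fell, and Ddit4 and Plod1 lay higher in UTX TCD cells without passing the test (edgeR quasi-likelihood test with Benjamini-Hochberg adjustment over all 4118 genes, adjusted p under 0.05). The rises ran from 1.43-fold for Bnip3 to 2.18-fold for Ndrg1. The count of 6 higher among 9 stands beside 41.1% of all tested genes called higher, and the 1 lower member beside 27.0% called lower. Together 7 of 9 were called in either direction, beside 68.1% of all tested genes. The median log2 fold change of the 9 was 0.61, and that of all tested genes was -0.15. The members were chosen with results of these data known, from rows already selected for a difference, and the counts are a description with no test of the group. In each of the 9 genes the 3 UTX TCD libraries lay on one side of the 3 WT libraries, as they did in 85.8% of all tested genes. In 8 of the 9 every UTX TCD library was above every WT library, beside 41.8% of all tested genes. With the scaling that centred the gap in the fold changes on 0, the groups overlapped in Bnip3, which had 42.3 to 62.8 CPM in UTX TCD and 38.6 to 42.5 CPM in WT libraries.

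**Figure D1:**
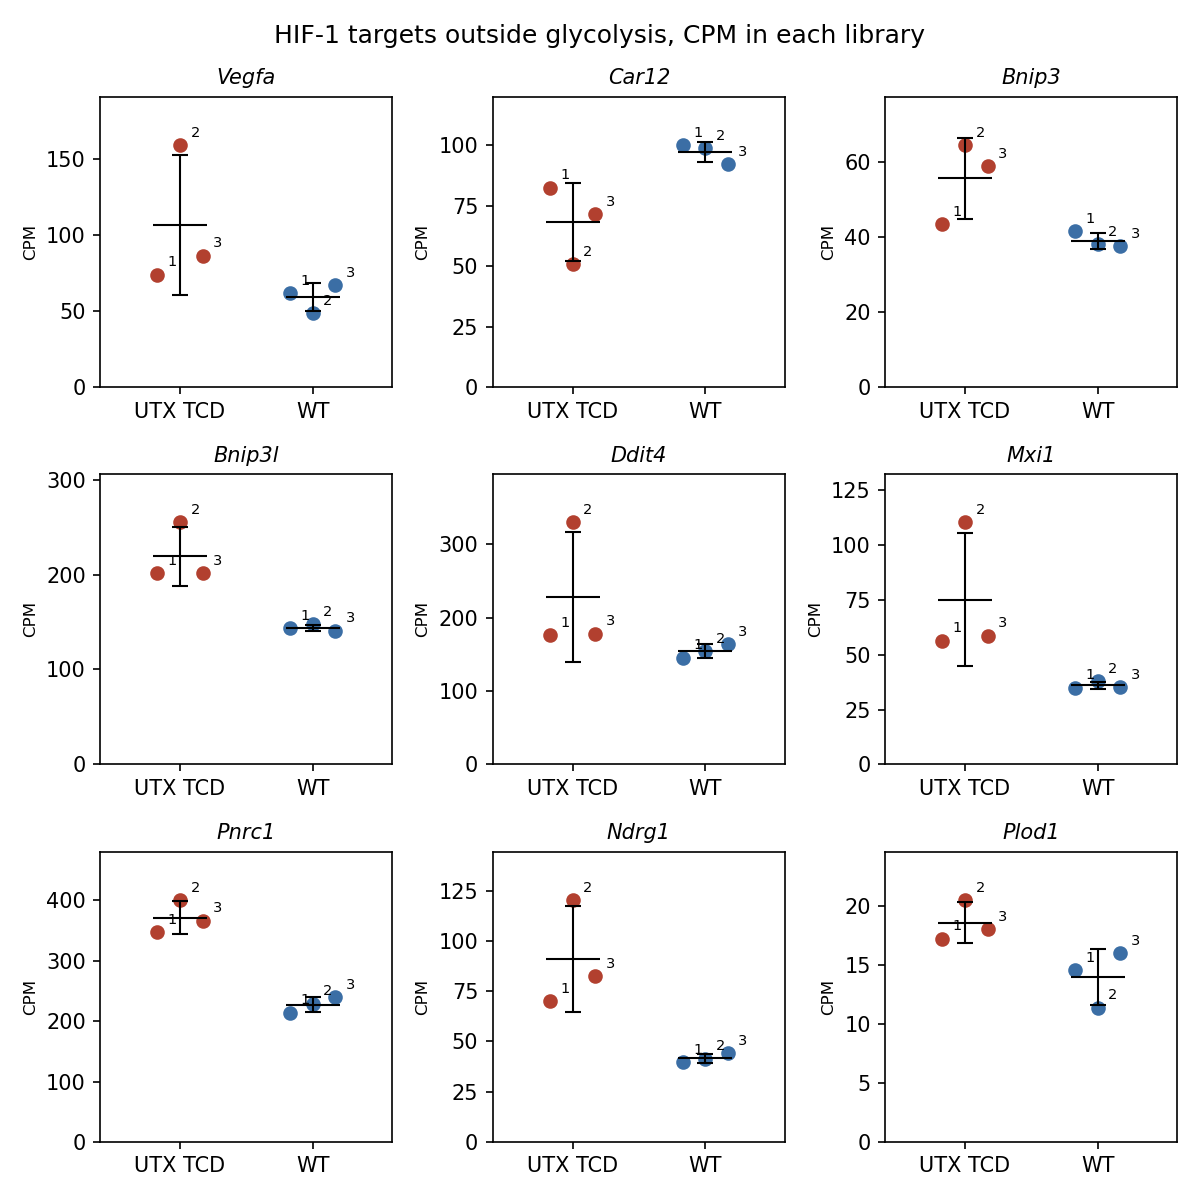
Level of each of the 9 HIF-1 targets in CPM (y axis, from 0) in UTX TCD libraries (red, left) and WT libraries (blue, right); each point is a library with its replicate number, the long line is the mean and the bars are 1 SD (n = 3). UTX TCD replicate 2 is the highest UTX TCD library in 8 panels and the lowest in that of Car12, while WT libraries lie close together.

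Per length of annotated exons, Pnrc1 and Ddit4 were the most abundant of the 9 in both genotypes and Plod1 the least. Pnrc1 had 177 ± 13.0 and Ddit4 130 ± 50.2 CPM per kb in UTX TCD cells, with overlapping libraries, against 109 ± 6.03 and 88.0 ± 5.26 CPM per kb in WT cells, where they did not overlap. Bnip3l followed at 56.8 ± 8.01 CPM per kb in UTX TCD and 37.3 ± 0.86 CPM per kb in WT cells (SD, n = 3). In UTX TCD cells Vegfa and Bnip3 came next at 24.8 ± 10.8 and 24.5 ± 4.82 CPM per kb, a pair that overlapped, then Ndrg1, Mxi1 and Car12 at 13.8 ± 3.98, 11.0 ± 4.47 and 8.99 ± 2.11 CPM per kb, each overlapping the next. In WT cells the order was Bnip3, Vegfa, Car12, Ndrg1 and Mxi1, at 17.2 ± 0.93, 13.8 ± 2.20, 12.8 ± 0.56, 6.32 ± 0.34 and 5.29 ± 0.23 CPM per kb, and of neighbouring genes Vegfa and Car12 overlapped. Plod1 stood at 2.75 ± 0.25 CPM per kb in UTX TCD and 2.07 ± 0.35 CPM per kb in WT cells. Car12 was thus above Ndrg1 and Mxi1 in WT cells, and below them in the mean of UTX TCD cells.

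The promoters of these genes differ in whether they hold the core letters of the element that HIF-1 binds. RefSeq's table for GRCm38.p6 gave 10 windows, from 250 bases before to 50 bases after a start site, for 7 of the 9 genes, and none for Bnip3l and Ndrg1. The cores searched were ACGTG and GCGTG on either strand, the reverse strand reading CACGT and CACGC; the letters CACGTG hold ACGTG on both strands and count as 2. At least 1 core was found in 6 of the 10 windows, against 43.8% of 32851 windows of the same length. ACGTG was in 5 of the 10 and in 19.6% of all windows, and GCGTG in 4 of the 10 and in 32.4% of all windows. Of the 10 windows 3 belong to Mxi1 and 2 to Vegfa, so they are not separate genes. The genes were picked as HIF-1 targets, and the difference from all windows was not tested. Bnip3 held 5 cores in its window and Ddit4 held 2, and both are printed here with Mxi1, which had no core before the first of its annotated start sites and 1 before each of the others; the window printed is that of the second. Each sequence is the stretch of the window before the first annotated exon base, 5′ to 3′ on the gene's strand, with the cores in capitals.
Bnip3, chr7:138909520-138909756, minus strand: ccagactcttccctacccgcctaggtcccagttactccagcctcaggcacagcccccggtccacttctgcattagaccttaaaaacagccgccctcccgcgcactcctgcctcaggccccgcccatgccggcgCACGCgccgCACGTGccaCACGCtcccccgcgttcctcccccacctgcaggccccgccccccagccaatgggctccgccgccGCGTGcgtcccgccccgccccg
Ddit4, chr10:59951835-59952020, minus strand: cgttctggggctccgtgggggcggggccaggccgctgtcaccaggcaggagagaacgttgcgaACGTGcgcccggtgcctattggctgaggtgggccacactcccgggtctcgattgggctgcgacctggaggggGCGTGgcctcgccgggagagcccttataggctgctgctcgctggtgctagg
Mxi1, chr19:53329163-53329412, plus strand: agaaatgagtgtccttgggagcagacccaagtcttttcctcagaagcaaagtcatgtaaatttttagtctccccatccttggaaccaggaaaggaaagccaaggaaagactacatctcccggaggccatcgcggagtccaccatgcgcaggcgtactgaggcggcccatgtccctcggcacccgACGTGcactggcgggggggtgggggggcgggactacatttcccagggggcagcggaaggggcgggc
In Bnip3 the cores began 117, 108, 107, 99 and 35 bases before the start site, in Ddit4 187 and 115 bases before it, and in Mxi1 66 bases before it. The window of Plod1 held 2 GCGTG cores, of which 1 lay upstream and began 20 bases before the start site. The windows of Pnrc1 and Car12 held none upstream, and Vegfa had none before its first start site and 2 before its second. Car12, which fell, and Pnrc1, which rose, were thus alike in this, and no match says only that these letters are not in that stretch.

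Vegfa, on chromosome 17 from 46016993 to 46032369 (GRCm38), encodes the secreted growth factor that draws blood vessels into tissue. It had 73.9, 159 and 86.4 CPM in UTX TCD libraries 1 to 3, against 61.8, 48.7 and 67.0 CPM in WT libraries 1 to 3. UTX TCD replicate 2 lay far above the other libraries, and UTX TCD replicate 1 only slightly above WT replicate 3. The mean was 106 ± 46.1 CPM in UTX TCD and 59.2 ± 9.42 CPM in WT cells, which gave 0.85 ± 0.28 on the log2 scale (edgeR adjusted p = 0.032). Without UTX TCD replicate 2 the log2 fold change was 0.43, still past the threshold, and without WT replicate 1, 2 or 3 it was 0.88, 0.72 and 0.94 and did not pass. The related ligand gene Vegfb rose as well, with 49.8 ± 5.87 CPM in UTX TCD and 27.2 ± 6.08 CPM in WT cells (0.87 ± 0.19, edgeR adjusted p = 0.0095). The neuropilins, surface coreceptors for these ligands that T cells also carry, went opposite ways. Nrp1 fell to 49.4 ± 8.05 CPM in UTX TCD cells, against 137 ± 17.7 CPM in WT cells (-1.47 ± 0.15, edgeR adjusted p = 0.00078), and Nrp2 rose at a low level, with 5.40 ± 2.19 CPM in UTX TCD and 1.88 ± 0.72 CPM in WT cells (1.53 ± 0.43, edgeR adjusted p = 0.020). The Nrp2 call was lost without WT replicate 1 or 3. The VEGF receptor genes Flt1, Kdr and Flt4 were not analysed here.

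Hif1a itself had 1693, 2730 and 1570 CPM in UTX TCD libraries, against 1138, 1048 and 1140 CPM in WT libraries. UTX TCD replicate 2 was the highest library, as it was for Vegfa, and the groups did not overlap. Its log2 fold change, 0.85 ± 0.20 (edgeR adjusted p = 0.012), was close to that of Vegfa, with 0.55 without UTX TCD replicate 2, and its call was lost without WT replicate 2 (0.81). The ratio of Vegfa to Hif1a counts within a library does not depend on scaling. It was 0.0437, 0.0583 and 0.0550 in UTX TCD libraries 1 to 3 and 0.0543, 0.0465 and 0.0588 in WT libraries 1 to 3. The mean log2 ratio was -4.27 ± 0.22 in UTX TCD and -4.24 ± 0.17 in WT cells (SD, n = 3 each), and the groups overlapped (difference -0.03, exact two-sided permutation test, p = 0.90, smallest p the design allows 0.10).

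Car12 was the member that fell. It lies on chromosome 9 from 66713686 to 66766845 and encodes a carbonic anhydrase at the cell surface, which turns carbon dioxide into bicarbonate and protons outside the cell. It had 82.5, 50.9 and 71.5 CPM in UTX TCD libraries 1 to 3, against 100.2, 99.0 and 92.4 CPM in WT libraries 1 to 3. UTX TCD replicate 2 was the lowest library, so Car12 was the 1 member in which that library was not the highest of its genotype. The log2 fold change was -0.51 ± 0.17 (0.70-fold, edgeR adjusted p = 0.031), and 576 of 4118 tested genes had a smaller one. The call was lost without UTX TCD replicate 3 (-0.55) and without WT replicate 1 (-0.49), 2 (-0.50) or 3 (-0.55). Of 20 other genes listed for carbonic anhydrases and pH regulation, 3 had a row. Car13, an intracellular carbonic anhydrase, rose with a wide spread, with 12.9 ± 8.50 CPM in UTX TCD and 4.79 ± 0.35 CPM in WT cells (1.43 ± 0.44, edgeR adjusted p = 0.026). Slc16a1, a lactate and proton carrier, fell (-0.43 ± 0.11, 0.014), and the bicarbonate carrier gene Slc4a7 did not pass (-0.27 ± 0.13, 0.082). The call of Car13 was lost without any 1 WT library, and that of Slc16a1 without WT replicate 1 or 2. Car9, the other carbonic anhydrase gene that HIF-1 is known for, was not analysed here.

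Bnip3 and Bnip3l encode related receptors on the outer mitochondrial membrane that tether mitochondria to autophagosomes, and both rose. Bnip3l, on chromosome 14 from 66985239 to 67008877, had 201, 255 and 201 CPM in UTX TCD libraries 1 to 3, against 144, 147 and 141 CPM in WT libraries 1 to 3. WT libraries lay within a few CPM of each other, and the lowest UTX TCD library was well above them. Its log2 fold change was 0.61 ± 0.11 (1.52-fold, edgeR adjusted p = 0.0051), and it passed whichever library was left out, at 0.48 to 0.67. Bnip3, on chromosome 7 from 138890836 to 138909519, had 43.4, 64.5 and 58.8 CPM in UTX TCD libraries 1 to 3, against 41.4, 38.0 and 37.6 CPM in WT libraries 1 to 3. UTX TCD replicate 1 was just above WT replicate 1, and the other UTX TCD libraries were clearly higher. Its log2 fold change was 0.51 ± 0.16 (edgeR adjusted p = 0.029), which did not pass without UTX TCD replicate 3 (0.47) or without WT replicate 1 (0.55), 2 (0.49) or 3 (0.48).

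Bnip3 shared the most sequence with other annotated genes of the 9. Of the different 50-base words in its annotated transcripts, 47.2% also occur in transcripts of other genes on either strand, and 22.3% of its exon bases overlap the antisense gene Gm45507. For Bnip3l the share of such words was 20.8%, all in the pseudogene Bnip3l-ps. Bnip3 and Bnip3l shared 0 words with each other. The ratio of Bnip3l to Bnip3 counts was 4.64, 3.95 and 3.43 in UTX TCD libraries 1 to 3, and 3.47, 3.88 and 3.74 in WT libraries 1 to 3, so the groups overlapped. The mean log2 ratio was 1.99 ± 0.22 in UTX TCD and 1.88 ± 0.08 in WT cells (SD, n = 3 each; difference 0.11, exact two-sided permutation test, p = 0.50, smallest p the design allows 0.10).

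Among other genes of mitophagy and autophagy more rose than fell, as in the whole table. Of 15 tested besides Bnip3 and Bnip3l, out of 49 listed, 9 rose, 2 fell and 4 did not pass, with a median log2 fold change of 0.29. Of all tested genes 41.1% were called higher and 27.0% lower, with a median of -0.15, and the difference from the list was not tested. Pink1, the kinase that marks damaged mitochondria, rose to 110 ± 19.6 CPM in UTX TCD cells, against 56.2 ± 13.3 CPM in WT cells (0.96 ± 0.20, edgeR adjusted p = 0.0076). Bcl2, which blocks apoptosis and restrains the autophagy protein Beclin 1, rose by 1.82 ± 0.16 on the log2 scale (edgeR adjusted p = 0.00059). Pink1 and Bcl2 were the 2 of the 11 called genes that passed whichever library was left out. Wipi1, which acts early in autophagosome formation, had the largest log2 fold change of the list at 1.91 ± 0.50, but at a very low level, with 2.69 ± 1.38 CPM in UTX TCD and 0.71 ± 0.12 CPM in WT cells (edgeR adjusted p = 0.016), and its call was lost without any 1 WT library. Smaller rises were those of the autophagy kinase genes Ulk1 and Ulk2 (0.33 ± 0.09 and 0.39 ± 0.11), their scaffold Rb1cc1 (0.43 ± 0.10) and Map1lc3b (0.37 ± 0.11), which coats autophagosomes, and of the cargo receptor gene Sqstm1 (0.29 ± 0.10) and Atg2a (0.23 ± 0.08), a lipid transfer protein. Atg4d and Atg13, a protease and a kinase subunit of the same pathway, fell by 0.35 ± 0.10 and 0.24 ± 0.09. The list had 2 higher and 0 lower genes when WT replicate 1 was left out, and 3 and 0 when WT replicate 2 was. It had 5 and 0 when either replicate 3 was left out, and 9 and 4 when UTX TCD replicate 2 was. Of all genes, 19.6% were higher and 9.69% lower without WT replicate 1, and 17.6% and 8.47% without WT replicate 2. Without WT replicate 3 the shares were 28.8% and 13.1%, and without UTX TCD replicate 2 they were 38.8% and 35.3%. Without UTX TCD replicate 3, 1488 and 927 of 4139 genes were called. Gap-centred scaling gave 7 higher and 5 lower in the list, beside 1547 and 1832 of 4118 genes.

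**Figure D2:**
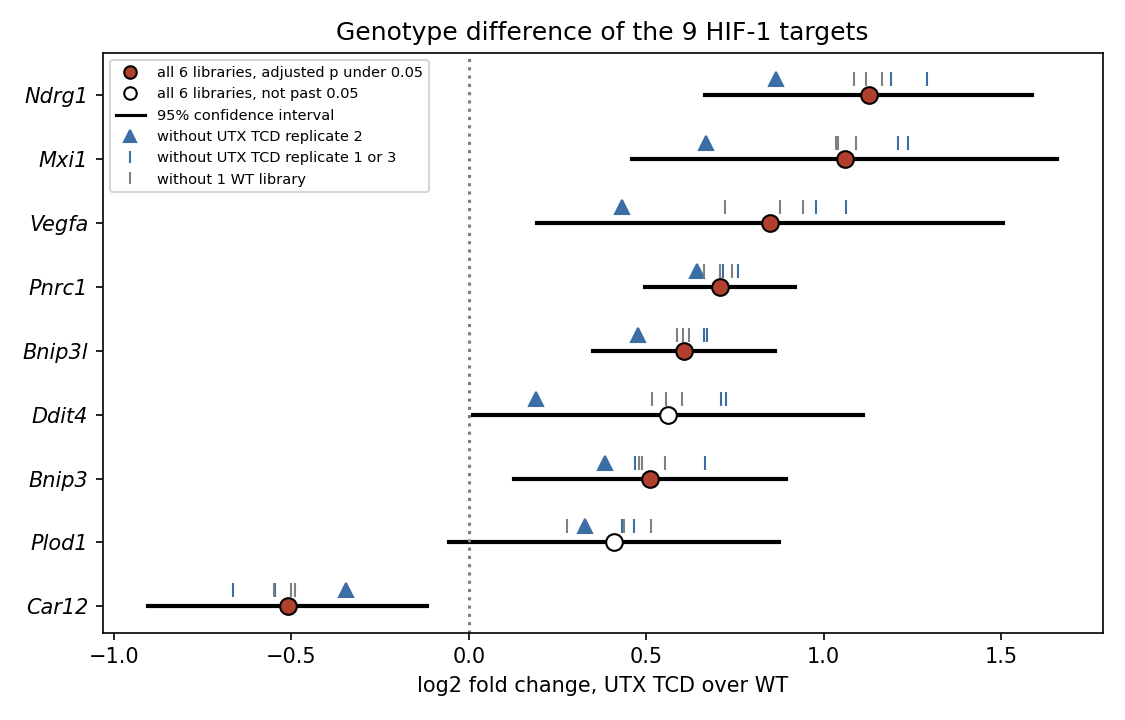
Log2 fold change of UTX TCD over WT (x axis) for the 9 HIF-1 targets; circles are the fit to all 6 libraries, filled where the adjusted p is under 0.05, lines are 95% confidence intervals, and the marks above give the fit with 1 library left out. Leaving out UTX TCD replicate 2 (triangles) moved Ddit4 to 0.19 and Vegfa to 0.43, and left Pnrc1 at 0.64.

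Ddit4, on chromosome 10 from 59949669 to 59951834, encodes REDD1, which acts through the TSC complex to hold back the growth kinase mTORC1. It had 176, 330 and 178 CPM in UTX TCD libraries 1 to 3, against 145, 154 and 164 CPM in WT libraries 1 to 3. UTX TCD replicates 1 and 3 lay just above the highest WT library, and replicate 2 was 1.86 times their mean. The log2 fold change of 0.56 ± 0.24 did not pass (edgeR adjusted p = 0.062), with a 95% interval of 0.01 to 1.11 before adjustment. Without UTX TCD replicate 2 it was 0.19 ± 0.07, which passed (0.040), so the size of the difference rests on 1 library while its sign does not. It also passed without UTX TCD replicate 1 (0.73) or 3 (0.71), with DESeq2 (0.61, adjusted p = 0.022) and with limma-voom and library weights (0.27, adjusted p = 0.046). DESeq2 and limma-voom thus each called 7 members higher and 1 lower, beside 42.8% and 22.0% of all genes tested by DESeq2, and 43.5% and 39.5% by limma-voom. Ddit4 did not pass in 9 of the 14 alternatives. Among these were the fits without WT replicate 1 (0.52), 2 (0.56) or 3 (0.60), and those with other scalings or the replicate block.

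Among other genes of mTORC1 and its upstream control, several rose by more than Ddit4. Of 13 tested besides Ddit4, out of 38 listed, 8 rose, 1 fell and 4 did not pass, with a median log2 fold change of 0.80. Beside them, 41.1% of all tested genes were called higher and 27.0% lower, with a median of -0.15, and the difference was not tested. Sesn3 and Sesn1 encode sestrins, stress proteins that restrain mTORC1. Sesn3 rose to 845 ± 118 CPM in UTX TCD cells, against 393 ± 24.4 CPM in WT cells (1.10 ± 0.12, edgeR adjusted p = 0.0010), and Sesn1 to 118 ± 18.4 CPM, against 70.0 ± 10.1 CPM (0.75 ± 0.15, 0.0074). Rragd, a Rag GTPase that recruits mTORC1 to lysosomes, rose by 1.49 ± 0.20, Fnip1, a partner of folliculin, by 1.25 ± 0.18, and Prkaa1, a catalytic subunit of the energy sensor AMPK, by 0.42 ± 0.09. These 5 genes passed whichever library was left out. The list thus holds higher genes that restrain mTORC1 and higher genes that serve its activation. The arginine sensor genes Castor1 and Castor2, listed in the table as Gatsl3 and Gatsl2, rose by 1.54 ± 0.41 and 0.90 ± 0.22, and Txnip, which limits glucose uptake, by 0.80 ± 0.19. Tbc1d7, a subunit of the TSC complex, fell by 0.47 ± 0.12. Calls were lost for Castor1 and Txnip without WT replicate 2, for Castor2 without WT replicate 1 and for Tbc1d7 without either. Ddit4l, a relative of Ddit4, was scarce, with 2.92 ± 1.50 CPM in UTX TCD and 1.08 ± 0.86 CPM in WT cells, and did not pass (edgeR adjusted p = 0.064). Genes called lower in the list numbered 4 when UTX TCD replicate 2 was left out and under gap-centred scaling. They numbered 0 when WT replicate 1 or 2 was left out. Calls of lower genes moved in the whole table too, with 35.3% of all genes without UTX TCD replicate 2. They were 9.69% and 8.47% without WT replicate 1 and 2, and 1832 of 4118 genes under gap-centred scaling.

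Mxi1, on chromosome 19 from 53310518 to 53375810, encodes a repressor that pairs with MAX and competes with MYC for DNA. It had 56.4, 110 and 58.8 CPM in UTX TCD libraries 1 to 3, against 35.1, 37.9 and 35.3 CPM in WT libraries 1 to 3. WT libraries differed little, UTX TCD replicates 1 and 3 were alike and above them, and replicate 2 was 1.92 times the mean of those replicates. The log2 fold change was 1.06 ± 0.26 (2.08-fold, edgeR adjusted p = 0.013), and 0.67 without UTX TCD replicate 2, with the call kept whichever library was left out. Of its exon bases 2.84% overlap Gm10197 on the opposite strand. The other MXD genes, which encode repressors of the same kind, rose by similar amounts. Mxd4 had 66.5 ± 12.1 CPM in UTX TCD and 32.0 ± 5.76 CPM in WT cells (1.06 ± 0.19, edgeR adjusted p = 0.0049), Mxd1 had 153 ± 46.6 and 83.3 ± 10.3 CPM (0.87 ± 0.21, 0.012), and Mxd3 had 55.0 ± 11.6 and 30.4 ± 2.39 CPM (0.86 ± 0.17, 0.0071). The call of Mxd1 was lost without WT replicate 2. Sin3a, the corepressor they recruit, rose by 0.27 ± 0.08, a call that was lost without UTX TCD replicate 3 or any 1 WT library, and the MAX-like gene Mlx did not pass (-0.25 ± 0.11, 0.074). Myc and Max were not analysed here, so the ratio of Mxi1 to Myc could not be set.

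Pnrc1 was the most abundant of the 9 and, among UTX TCD libraries, the most even. It lies on chromosome 4 from 33245423 to 33290163 and encodes a proline-rich coactivator of nuclear receptors, which in human cells also brings the mRNA decapping machinery to the nucleolus. It had 347, 401 and 366 CPM in UTX TCD libraries 1 to 3, against 214, 229 and 239 CPM in WT libraries 1 to 3. The genotypes were far apart and the UTX TCD libraries close together, with a coefficient of variation of 7.31%. The log2 fold change was 0.71 ± 0.09 (1.63-fold, edgeR adjusted p = 0.0019), and lay between 0.64 and 0.76 with any 1 library left out. Of 3 other genes tested in its list, out of 13, the decapping factor gene Dcp1b rose by 0.61 ± 0.13 (edgeR adjusted p = 0.0080) and the nuclear receptor coactivator gene Ncoa3 by 0.50 ± 0.12 (0.012), while the RNA helicase gene Upf1 did not pass (-0.19 ± 0.11, 0.14). The call of Ncoa3 was lost without WT replicate 2.

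Ndrg1 had the largest rise of the 9. It lies on chromosome 15 from 66929318 to 66969640 and encodes a cytoplasmic protein that is induced by hypoxia and other stresses. It had 69.9, 120 and 82.6 CPM in UTX TCD libraries 1 to 3, against 39.5, 41.4 and 44.0 CPM in WT libraries 1 to 3. The lowest UTX TCD library was 1.68 times the WT mean. The log2 fold change was 1.13 ± 0.20 (2.18-fold, edgeR adjusted p = 0.0047), exceeded by 468 of 4118 tested genes, and it passed whichever library was left out, with 0.87 without UTX TCD replicate 2. Antisense genes overlap 6.35% (Gm17035) and 2.08% (Gm2895) of its exon bases. Ndrg2, a relative of Ndrg1, rose to 102 ± 37.2 CPM in UTX TCD cells, against 42.8 ± 5.29 CPM in WT cells (1.26 ± 0.24, edgeR adjusted p = 0.0062), and also passed whichever library was left out. Ndrg3 and Ndrg4 were not analysed here.

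Plod1, on chromosome 4 from 147909753 to 147936767, encodes a lysyl hydroxylase that prepares collagen for cross-linking, and it was the scarcest of the 9. It had 17.2, 20.5 and 18.0 CPM in UTX TCD libraries 1 to 3, against 14.6, 11.4 and 16.0 CPM in WT libraries 1 to 3, which rest on 143 to 194 counts in UTX TCD and 105 to 147 counts in WT libraries. All UTX TCD libraries were above all WT libraries, by a margin smaller than the gaps between WT libraries. The log2 fold change of 0.41 ± 0.20 did not pass (edgeR adjusted p = 0.090, 95% interval -0.05 to 0.88), nor did it under any of the 14 alternatives tried. Collagen-modifying genes were few in the table, 2 of 20 besides Plod1. P3h2, a prolyl hydroxylase of collagen, fell to 0.27 ± 0.19 CPM in UTX TCD cells, against 2.19 ± 0.75 CPM in WT cells (-3.02 ± 0.60, edgeR adjusted p = 0.0068), and P3h1 did not pass (-0.30 ± 0.13, 0.075).

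UTX TCD replicate 2 was the highest UTX TCD library in 8 of the 9, against 39.9% of all tested genes and 71.3% of all genes called higher, and the lowest in Car12. It was the highest UTX TCD library in 1643 and the lowest in 1759 of 4118 tested genes, so it was at an extreme in most of the table. It exceeded the mean of replicates 1 and 3 by 1.99 times for Vegfa, 1.92 for Mxi1, 1.86 for Ddit4 and 1.58 for Ndrg1, but by 1.27 times for Bnip3l, 1.26 for Bnip3, 1.16 for Plod1 and 1.12 for Pnrc1. The coefficient of variation of the 9 genes was 7.31% to 43.3% among UTX TCD libraries (median 23.5%) and 2.31% to 16.9% among WT libraries (median 5.44%). Hif1a was highest in the same library, and its part in these levels was not tested. Without it the 6 rises and the fall of Car12 still passed and Ddit4 joined them, giving 7 higher and 1 lower among 9, beside 38.8% and 35.3% of all genes tested.

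Measured by the root mean square difference of centred log2 CPM over the 6 libraries, the members most alike were Bnip3l and Pnrc1 (0.10) and Ndrg1 and Mxi1 (0.13), and Car12 differed from every other member by 0.58 to 0.92. The gene of the whole table nearest to Bnip3l was Wdtc1 (0.01), and that nearest to Pnrc1 was Zfp60 (0.04). Nearest to Ndrg1 were Aig1 (0.04), Dhdh and the cell cycle inhibitor gene Cdkn1b (0.06 each), and nearest to Vegfa was Fyb (0.07). The likest genes were 1600014C10Rik (0.05) and Fosl2 (0.06) for Ddit4, Map3k9 (0.08) for Mxi1, Naxe (0.04) for Bnip3, Fam46c (0.07) for Plod1 and Nol10 (0.03) for Car12. The remaining genes among the 3 nearest were Ifi27 and Gpr162 for Vegfa, D2hgdh and Id2 for Bnip3, Pqlc3 and Mta3 for Bnip3l, and Gpatch4 and Hsph1 for Car12. They were Trafd1 for Ddit4, Zbtb10 and Sbf2 for Mxi1, Slc2a4rg-ps and Pcyox1 for Plod1, and Eml5 and Ugcg for Pnrc1, and all of these lay at 0.03 to 0.10. Fosl2 had a log2 fold change of 0.52 ± 0.24 and, like Ddit4, did not pass (edgeR adjusted p = 0.076).

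**Figure D3:**
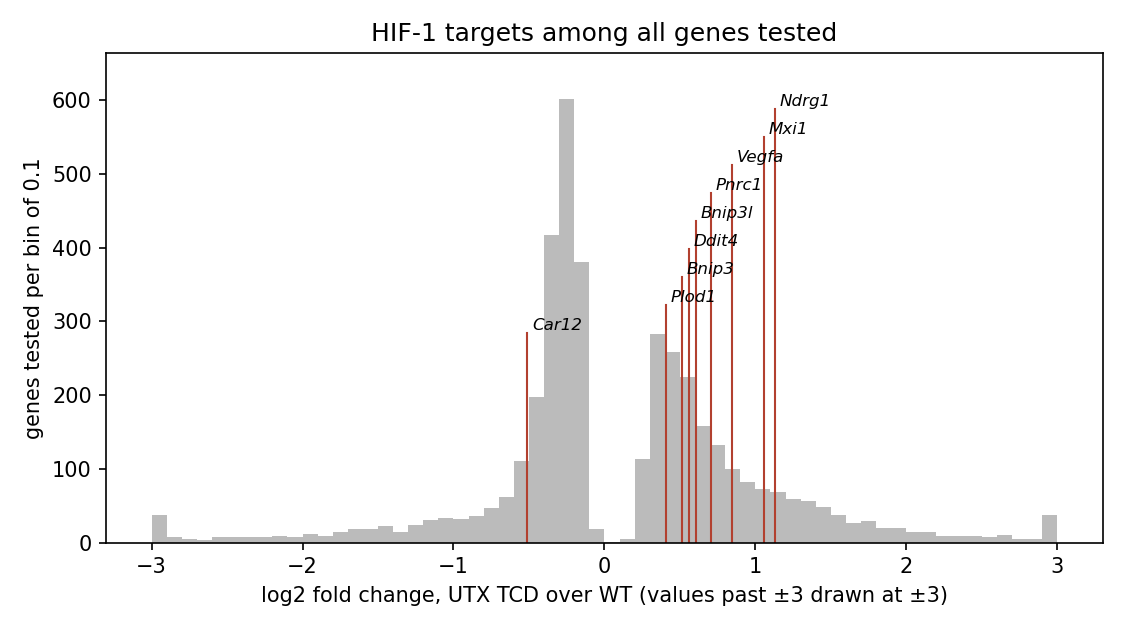
Number of tested genes (y axis) per bin of 0.1 in log2 fold change of UTX TCD over WT (x axis), with the 9 HIF-1 targets as red lines whose heights only separate the names. Few genes lie near 0 because the deposited rows were selected on the genotype difference, and all 9 targets lie outside that gap, 8 above it and Car12 below it.

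Other known HIF-1 targets outside glycolysis lay on both sides. Of 45 listed, 16 had a row, of which 5 rose, 4 fell and 7 did not pass, beside 41.1% higher and 27.0% lower among all tested genes. Their median log2 fold change was -0.20, beside -0.15 for all tested genes, and the difference from the 9 was not tested. The risers were Cxcr4, a chemokine receptor (2.18 ± 0.27), Anxa2, a membrane-binding annexin (1.40 ± 0.23), the transcription factor gene Ets1 (1.20 ± 0.14), Tet1, which oxidises methylated cytosine (0.99 ± 0.15), and the histone demethylase gene Kdm4b (0.38 ± 0.09). Those that fell were Edn1, which encodes the vessel-constricting peptide endothelin (-1.96 ± 0.66), Angptl4, a secreted inhibitor of lipoprotein lipase (-1.01 ± 0.13), Cited2, which competes with HIF-1 for its coactivator (-0.47 ± 0.09), and Jmjd6, a dioxygenase (-0.28 ± 0.10). Edn1 was scarce, with 0.57 ± 0.38 CPM in UTX TCD and 2.18 ± 1.37 CPM in WT cells. Angptl4 had 42.2 ± 5.84 CPM in UTX TCD and 84.8 ± 2.04 CPM in WT cells. Of the 9 called, Cxcr4, Anxa2, Ets1, Tet1, Angptl4 and Cited2 passed whichever library was left out. The count of lower genes was 2 without WT replicate 1 or 2, and 7 with gap-centred scaling or limma-voom. Calls of lower genes in the whole table moved too. They were 9.69% and 8.47% of all genes without WT replicate 1 and 2. They were 1832 of 4118 genes with gap-centred scaling and 39.5% with limma-voom. Among 6 HIF subunits and oxygen-sensing regulators with a row, of 20 listed, Hif1a was the 1 that rose. The 3 that fell were Hif3a (-2.55 ± 0.29), Cited2 (-0.47 ± 0.09) and Vhl (-0.34 ± 0.12). Hif3a was scarce, with 1.28 ± 0.12 CPM in UTX TCD and 7.59 ± 1.06 CPM in WT cells. This list of regulators had 0 higher and 2 lower without WT replicate 2, beside 17.6% and 8.47% of all genes. It had 5 lower without UTX TCD replicate 1, with gap-centred scaling or with limma-voom. Of all genes, 1428 of 4141 were lower without UTX TCD replicate 1, and the shares for the other settings are those given above. Vhl did not pass without any 1 WT library.

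**Figure D4:**
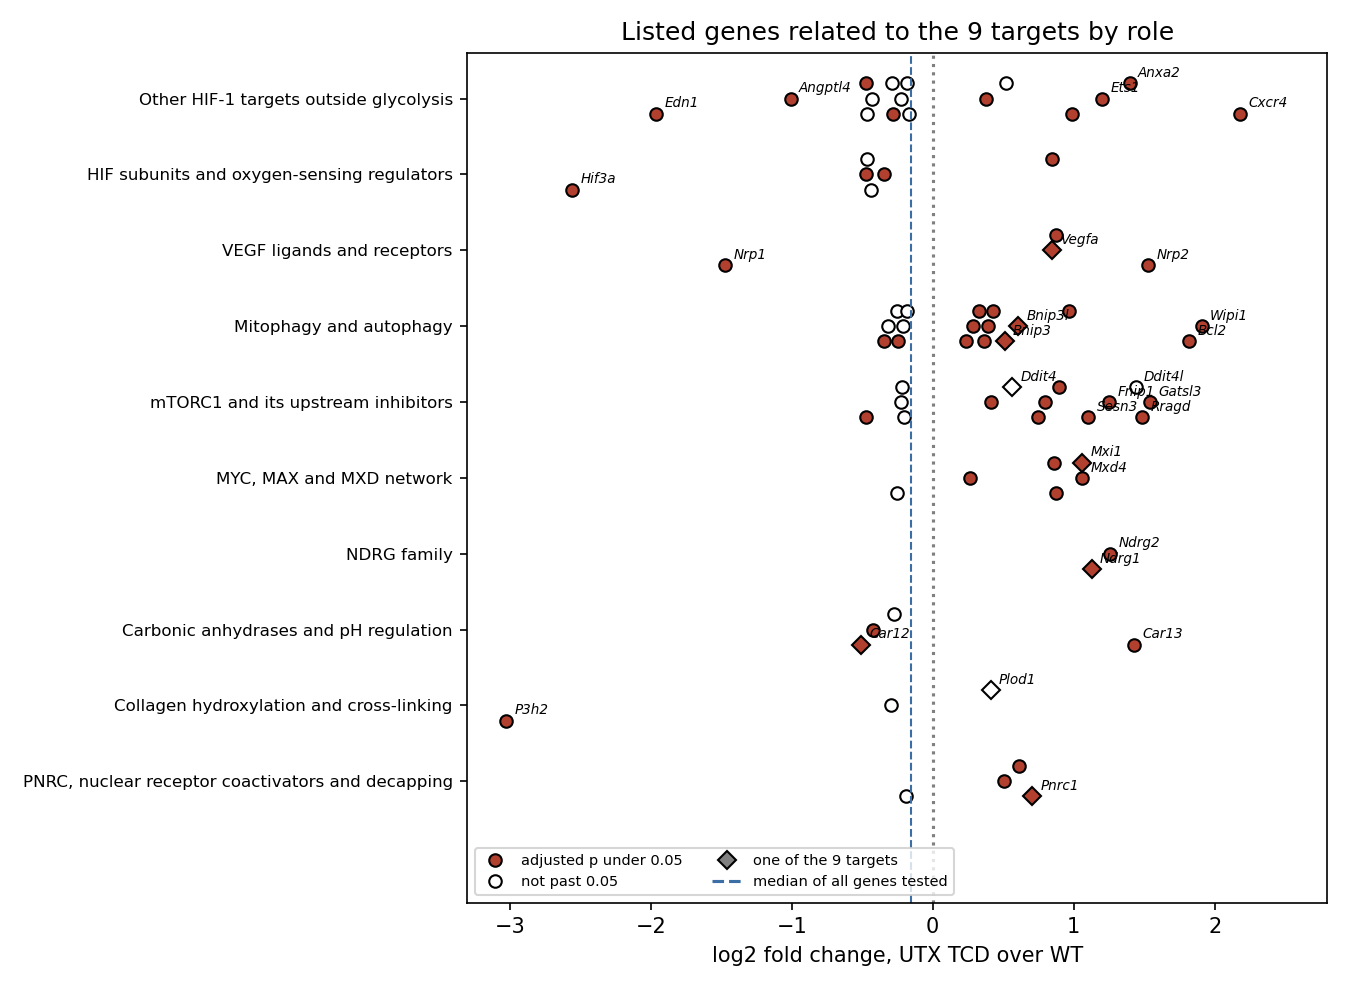
Log2 fold change of UTX TCD over WT (x axis) for the tested genes of 10 lists related to the 9 targets by role; diamonds are the 9 targets, circles other genes, filled where the adjusted p is under 0.05, and height within a row only separates points. All diamonds but Car12 lie above 0 and above the median of all tested genes (dashed line, -0.15), while other HIF-1 targets lie on both sides.

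Because rows were selected before deposit, adjustment over the table leaves out genes that had been tested or could have been. When each of 21951 annotated protein-coding genes was counted as a test, Ndrg1, Pnrc1 and Bnip3l remained past it and Vegfa, Bnip3, Mxi1 and Car12 did not, which gives 3 higher and 0 lower members beside 15.3% and 7.19% of all tested genes. Mxi1 then had an adjusted p of 0.068, Bnip3 of 0.15, and Vegfa and Car12 of 0.17. With any 1 WT library left out, Bnip3l, Ndrg1, Mxi1 and Pnrc1 were the 4 higher members and 0 were lower, beside 19.6%, 17.6% and 28.8% of all genes called higher and 9.69%, 8.47% and 13.1% called lower without WT replicate 1, 2 and 3.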

How the data were processed

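The authors deposited 1 table of read counts, not normalized, for 4162 gene symbols in 6 libraries. The submitters' processing notes name FastQC, HISAT2, HTSeq and mm10; the sources used here do not give versions, annotation or strand setting. Columns were tied to samples by genotype and number in the titles, and each library is taken as 1 mouse, since the series' design text gives 3 mice per genotype. Counts were tested with edgeR 4.0.16 in R 4.3.3 (quasi-likelihood F test, genotype as the only term, minimum count 10, minimum total count 15, TMM scaling, Benjamini-Hochberg adjustment); the filter left out 44 genes. Standard errors were derived from the fold change and its F statistic. For ratios within a library, 0.5 was added to each count. Alternatives used DESeq2 1.42.0, limma 3.58.1, other scalings, no filter, a replicate block, a larger number of tests and each library left out. Exon lengths and coordinates come from GENCODE M21 (GRCm38), and 2 list genes were matched by an older symbol. The members, gene lists and rule for named genes (all members, up to 4 called genes per list and direction with the smallest p, family members, and the 3 nearest patterns) were chosen with earlier results of these data known. A listed gene is not reported here. Wipi1, Sqstm1 and other called genes past those 4 were named after their values were seen.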

Additional observations from a re-analysis of the deposited data

How the results depend on the processing

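Of 126 fits of single members under 14 alternatives, 105 stayed on the same side of the threshold, 16 lost it, 5 (all Ddit4) passed it and 0 changed direction. The members' median log2 fold change was 0.43 to 0.73 with 1 library left out and 0.50 to 0.69 otherwise. Members called higher numbered 4 to 7 with 1 library left out, and 3 with every coding gene counted as a test; members called lower numbered 0 to 1, and 0. All genes called higher were 1692 and lower 1111 (60.4% higher), against 630 and 296 with every coding gene counted, 1742 and 725 with upper-quartile scaling (70.6% higher), 1547 and 1832 with gap-centred scaling (45.8% higher), and 730 to 1824 and 351 to 1458 with 1 library left out. Without UTX TCD replicate 1 the difference of the log2 Bnip3l to Bnip3 ratio was -0.0049 (range -0.0049 to 0.21 over libraries left out), and that of Vegfa to Hif1a was 0.10, with 0.05 without WT replicate 3 (range -0.12 to 0.10); the cause was not tested. Whether the replicate numbers pair the samples could not be told from 3 libraries per group. Correlations of deviations between libraries of the same number were 0.279, -0.281 and 0.18. UTX TCD replicates 1 and 3 correlated best with the WT library of their own number, and UTX TCD replicate 2 did not. With the replicate block 5 members were higher and 1 lower, Vegfa then having an adjusted p of 0.051 by edgeR, and 1607 and 1026 of all genes; the ratios differed by 0.11 and -0.03. The Mxi1 to Myc ratio was not run. Low counts limit Plod1, and the selected rows limit every comparison with the transcriptome.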
